A study of Sus scrofa with 35 samples.

Results

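Regulators of mitochondrial biogenesis were followed in longissimus dorsi, a muscle of the back, taken from growing pigs under heat stress (HS) or at thermoneutrality (TN). A list of 9 genes was set: the coactivators PPARGC1A and PPARGC1B, the nuclear receptors PPARA, PPARD, ESRRA and ESRRG, the nuclear respiratory factor NRF1, and the mitochondrial factors TFAM and TFB2M. Members were the probes of a 1-colour Agilent porcine array whose gene name in the scanner files is on that list, in any letter case, which gave 14 probes of 6 genes, out of 60305 probes and 11766 genes with a symbol in the whole series. PPARGC1A and ESRRA had 1 such probe each, ESRRG had 2, PPARA 3, PPARD 3 and TFAM 4. PPARGC1B, NRF1 and TFB2M had no probe under those names and were not analysed here. A further 2 probes carry the older name PPARGC-1 and are described apart from the count of members.

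Each of the 35 arrays held the RNA of 1 muscle sample from 1 castrated male, and no transgene or engineered allele was involved. Creole pigs, Large White pigs and their F1 cross gave 6 TN and 6 HS arrays each, except for F1 under HS, which gave 5. TN pigs are labelled as kept at 24 °C. The room temperature of HS pigs is 30 °C by their labels but 32 °C by the growth protocol, which has a challenge of 5 days, and by the methods, and both values are left standing. Pigs entered the climatic room at 11 weeks of age, came from 3 blocks of 4 littermates per breed, and HS pigs were slaughtered after 4 or 5 days of exposure whereas TN pigs were slaughtered before the temperature rose. Slaughter day, age and pen therefore went with temperature and cannot be told apart from it, and littermates were treated as independent animals in every test.

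The pathway has a known order. PPARGC1A and PPARGC1B bind no DNA themselves and are drawn to genes by partner factors such as the PPAR and ESRR receptors and NRF1, which bind the promoters of genes for fatty acid oxidation and the respiratory chain. NRF1 and its partners also drive TFAM and TFB2M, which enter mitochondria, where TFAM packages mitochondrial DNA and both start its transcription. In muscle, PPARGC1A is known for its rise with endurance exercise, cold and fasting, and the whole set is high in oxidative fibres.

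Values below are log2 of the quantile-normalised median pixel intensity of a spot, called the log2 level. A level cannot be set against that of another probe, because probes differ in binding. The tissue label was checked first, and all 8 striated muscle genes of the marker list were well above background on all 35 arrays. The 75th percentile of the raw intensity ranged from 425.5 to 785.4 over arrays and its log2 was higher under HS by 0.18 (permutation p = 0.0141, adjusted over 12 array measures 0.0241). Several marker lists moved with temperature too. The mean of the leukocyte list (12 genes measured, 4 higher and 0 lower in HS, each of the 12 above background on 24 arrays or more) ran from 7.31 to 9.56 on TN arrays and from 8.48 to 9.82 on HS arrays, 0.59 higher (adjusted permutation p = 0.00562). The fast fibre list mean was 0.19 lower (adjusted permutation p = 0.00264), whereas the slow and oxidative fibre list mean was 16.39 at both temperatures. That equal mean hid opposite changes, with a median log2 difference of -0.09 over 8 measured genes. Of these, 1 was called higher (CASQ2, 0.86, SE 0.20) and 1 lower (TPM3, -0.29, SE 0.09). The 2 other kept probes of CASQ2 were also called higher. Of the 7 other kept probes of TPM3, 0 were called lower and 3 had the opposite sign, so its lower call rests on 1 probe. The blood cell list mean was lower under HS by 0.37 (adjusted permutation p = 0.00264), the endothelial list mean by 0.18 (adjusted permutation p = 0.0235) and the striated muscle list mean by 0.11 (adjusted permutation p = 0.0364). The nerve list mean was higher under HS by 0.26 (adjusted permutation p = 0.00352) and the connective tissue list mean by 0.25 (adjusted permutation p = 0.00483), and the adipocyte list did not pass (0.15, adjusted permutation p = 0.214). The part of these shifts in the values of the members was not tested, apart from the fits with brightness or the leukocyte mean as a covariate. In such bulk samples, fewer cells of a type and less RNA per cell cannot be told apart.

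The probes of PPARD, PPARA and TFAM are shown first, because the results on these genes differed between probes. The 3 PPARD probes were named a (identifier O9480), b (A_72_P443751) and c (A_72_P165296). Probes b and c are shown whole and only the start of probe a is shown:
PPARD probe a, bases 1 to 30: gctaggagcagcttcctgtttttaatataa
PPARD probe b: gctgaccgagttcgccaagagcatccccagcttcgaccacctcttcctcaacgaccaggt
PPARD probe c: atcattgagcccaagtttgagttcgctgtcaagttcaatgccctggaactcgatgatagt
Each is 60 bases long, and no pair of them shared a run longer than 8 bases, so they read 3 separate stretches. Their GC content was 35% for probe a, 60% for probe b and 45% for probe c.

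PPARA was read by probes a (A_72_P775972), b (A_72_P441798) and c (O221), and the last of these was well above background on 0 of 35 arrays. The weak pair b and c is shown, since it sets how far PPARA could be measured:
PPARA probe b: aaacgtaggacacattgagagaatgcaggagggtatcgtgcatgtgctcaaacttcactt
PPARA probe c: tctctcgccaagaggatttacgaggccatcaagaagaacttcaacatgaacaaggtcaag

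TFAM probes a (A_72_P149791) and b (A_72_P640550) overlapped by 40 bases, so they are not independent readings of the gene. Capitals mark bases of the shared run, in a stretch of 30 bases from each probe:
TFAM probe a, bases 1 to 30: CTGTAATCATGTGATTTTGCTATTGCTTTT
TFAM probe b, bases 11 to 40: attcagcctaCTGTAATCATGTGATTTTGC
TFAM probes c (A_72_P305714) and d (A_72_P579182) shared at most 7 bases in a row with these or with each other.

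The effect of heat on the regulators was tested over all 35 arrays, in a model with breed and temperature. Of the 13 member probes that passed the filter on dim probes, 5 fell under HS and 0 rose: ESRRA, 1 of 2 ESRRG probes, 2 of 4 TFAM probes (the overlapping pair) and 1 of 3 PPARD probes. Over all 41517 probes tested, 16% were called in this comparison, 8.30% lower and 7.73% higher. The point estimate was below 0 for 12 of the 13 member probes, with a median log2 difference of -0.21, against 56.1% of all probes and a median of -0.02. PPARA probe b and PPARD probe c, both uncalled, passed the filter only through Large White TN, their highest group. For them the filter itself favoured a value below 0. All calls in this comparison are from limma with Benjamini-Hochberg adjustment over all probes tested.

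PPARGC1A, the coactivator at the head of the pathway, did not pass the test. On probe a (O9324), named PPARGC1A in the files, the 18 TN arrays ran from 9.57 to 11.15 with a median of 10.21, and the 17 HS arrays from 9.12 to 10.55 with a median of 9.99. The ranges overlapped over most of their length, and 3 HS arrays lay below every TN array. The log2 difference was -0.29 (SE 0.13, 95% interval -0.56 to -0.01, limma adjusted p = 0.144). On the 2 probes under the older name, b (A_72_P077836) and c (A_72_P297579), it was -0.30 (SE 0.13, limma adjusted p = 0.116) and -0.20 (SE 0.12, limma adjusted p = 0.251). Array by array, the 3 probes ran together, as described with the correlations.

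By breed, all 3 PPARGC1A probes were lower under HS in Creole and Large White pigs and higher in F1 pigs, with no call in any breed. Probe a was at 10.43 ± 0.54 (SD, n = 6) in Creole TN and 9.98 ± 0.48 (SD, n = 6) in Creole HS, and at 10.24 ± 0.40 (SD, n = 6) in Large White TN and 9.76 ± 0.36 (SD, n = 6) in Large White HS. In F1 pigs it was at 10.07 ± 0.30 (SD, n = 6) in TN, and the 5 HS arrays read 10.36, 10.18, 9.99, 9.98 and 10.42. HS arrays below the TN mean of their breed numbered 5 of 6 in Creole, 2 of 5 in F1 and 6 of 6 in Large White. The log2 differences were -0.45 (SE 0.22) in Creole, 0.12 (SE 0.23) in F1 and -0.48 (SE 0.22) in Large White. The test of the difference between breeds, the moderated F-test of the interaction in limma, did not pass for any PPARGC1A probe (adjusted p = 0.963 for each, unadjusted p = 0.132, 0.0582 and 0.129 for probes a, b and c). Within the 4 slides that held 4 TN and 4 HS arrays each, probe a differed by -0.35, 0.19, -0.72 and -0.31.

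Among the receptors, ESRRA, an orphan receptor that switches on genes of oxidative metabolism with PPARGC1A, fell under HS. Its single probe (O14528) ran from 13.11 to 13.95 with a median of 13.70 on TN arrays and from 12.87 to 13.82 with a median of 13.37 on HS arrays. In 15 of 17 HS pigs the level was below the TN mean of the breed, although both ranges overlapped. The log2 difference was -0.25 (SE 0.08, 95% interval -0.41 to -0.09, limma adjusted p = 0.0256), a level 0.840 times that of TN. By breed it was -0.24 (SE 0.14) in Creole, -0.25 (SE 0.14) in F1 and -0.27 (SE 0.14) in Large White, and was below 0 on all 4 slides (-0.50 to -0.05). The interaction had a limma adjusted p = 0.999.

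ESRRG, a related receptor found in tissues of high oxidative demand such as heart and slow muscle, had the largest log2 difference of the members. Probe b (A_72_P031731) ran from 6.45 to 8.48 with a median of 7.70 on TN arrays and from 6.30 to 7.81 with a median of 7.09 on HS arrays. No HS array reached the 8 highest TN arrays, while 1 HS array lay below every TN array. The log2 difference was -0.55 (SE 0.17, 95% interval -0.88 to -0.21, limma adjusted p = 0.0219), a level 0.684 times that of TN. Probe a (O5649) gave -0.50 (SE 0.19) and did not pass (limma adjusted p = 0.0676), although both probes followed each other closely from array to array. Large White pigs had the widest gap on probe b, from 7.91 ± 0.40 (SD, n = 6) in TN to 6.98 ± 0.56 (SD, n = 6) in HS, and F1 pigs the narrowest, from 7.32 ± 0.76 (SD, n = 6) to 7.17 ± 0.37 (SD, n = 5). The interaction did not pass (limma adjusted p = 0.963).

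**Figure D1:**
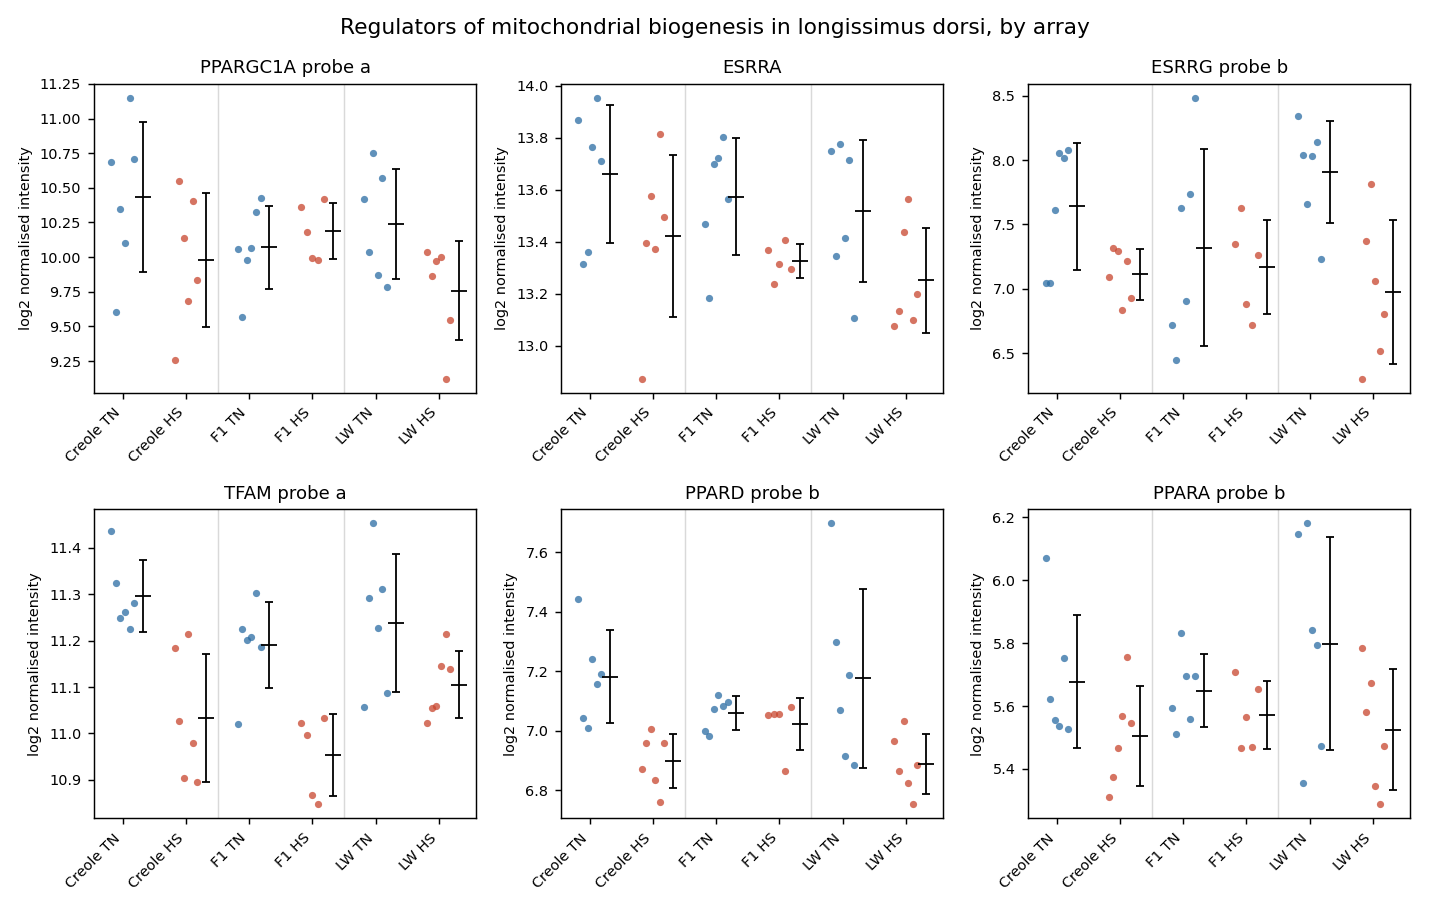
Log2 normalised intensity of 1 probe for each of 6 regulators on all 35 arrays, by group (LW, Large White), with TN in blue and HS in red, 1 point per array, and the mean ± SD beside each group. The probes are PPARGC1A a, ESRRA, ESRRG b, TFAM a, PPARD b and PPARA b. For ESRRG, PPARD and PPARA the brighter probe a is not plotted here, and its HS minus TN log2 difference was -0.50, 0.18 and -0.10. TFAM probe a was below the TN mean of the breed in 17 of 17 HS pigs, whereas PPARGC1A probe a was so in 13 of 17.

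PPARD, the fatty acid sensing receptor that is the main PPAR of skeletal muscle, gave values of both signs on its 3 probes. Probe b fell: the TN arrays ran from 6.89 to 7.70 with a median of 7.09, and the HS arrays from 6.75 to 7.08 with a median of 6.96. Here 8 of 17 HS arrays lay below every TN array and 10 of 18 TN arrays above every HS array. The log2 difference was -0.21 (SE 0.06, limma adjusted p = 0.0121). Probe c, well above background on 15 of 35 arrays, differed by -0.01 (SE 0.05, 95% interval -0.11 to 0.09). It passed the filter on dim probes only through Large White TN, its highest group (5 of 6 arrays well above background). Probe a differed by 0.18 (SE 0.10, 95% interval -0.02 to 0.38, limma adjusted p = 0.205), with 12 of 17 HS arrays above the TN mean of the breed. No direction is given for the gene as a whole, since the probes differed in sign.

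PPARA, the receptor for fatty acid oxidation genes best known from liver, was read near background. Probe a was well above background on 33 of 35 arrays and probe b on 19, 12 of 18 TN arrays and 7 of 17 HS arrays. Probe b passed the filter on dim probes only through Large White TN, its highest group (5 of 6 arrays well above background). The log2 difference of probe a was -0.10 (SE 0.05, limma adjusted p = 0.209), from TN levels of 5.67 to 6.48 and HS levels of 5.78 to 6.28. That of probe b was -0.18 (SE 0.07, limma adjusted p = 0.0722), from TN levels of 5.35 to 6.18 and HS levels of 5.29 to 5.79. Neither passed, and 14 of 17 HS arrays lay below the TN mean of the breed on both probes.

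TFAM, which coats and transcribes mitochondrial DNA, had the smallest p of the members. On probe a the TN arrays ran from 11.02 to 11.45 with a median of 11.24, and the HS arrays from 10.85 to 11.22 with a median of 11.03. All 17 HS arrays were below the TN mean of their breed, and 12 of 18 TN arrays were above every HS array. The log2 difference was -0.21 (SE 0.04, 95% interval -0.29 to -0.13, limma adjusted p = 0.000982), a level 0.865 times that of TN. Probe b, which shares 40 of its bases, gave -0.22 (SE 0.05, limma adjusted p = 0.00312). The 2 probes that share no stretch with them did not pass: probe d gave -0.33 (SE 0.15, limma adjusted p = 0.116) and probe c -0.10 (SE 0.13, limma adjusted p = 0.629). Probe c had 1 array far below its group in F1 TN and 1 in F1 HS.

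**Figure D2:**
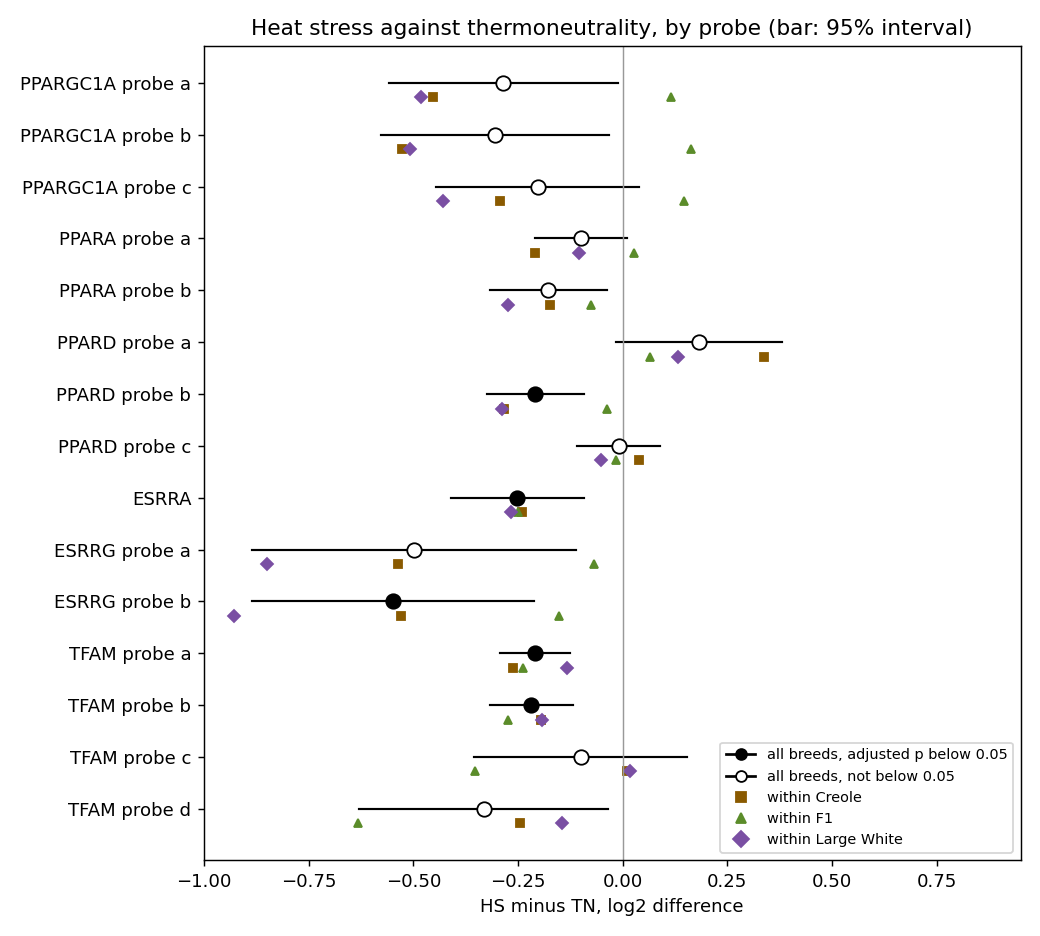
HS minus TN log2 difference for 13 member probes and 2 PPARGC1A probes of the older name. Circles are the fit over all breeds with its 95% interval (filled where the adjusted p is below 0.05), and small squares, triangles and diamonds are the differences within Creole, F1 and Large White. All filled circles lie below 0, between -0.55 and -0.21, and PPARD probe a is the only circle above 0, at 0.18.

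These calls moved with array brightness and with the leukocyte list mean, whose part in the result was not tested. Adding brightness to the model left 2 of 13 member probes called, and adding the leukocyte mean also left 2, the overlapping TFAM pair in both cases. Calls over all 41517 probes fell too, from 6654 to 2092 with brightness and to 2009 with the leukocyte mean. Scaling on the spike-in controls left 1 call. With brightness, the leukocyte mean and the spike-in scaling, in that order, ESRRA had limma adjusted p = 0.229, 0.546 and 0.173 and PPARD probe b 0.173, 0.191 and 0.135. ESRRG probe b kept its call with the spike-in scaling and lost it with both covariates (limma adjusted p = 0.195 with brightness and 0.278 with the leukocyte mean). TFAM probe a kept its call with both covariates and lost it with the spike-in scaling (limma adjusted p = 0.683), under which the overall calls were 4044 higher and 627 lower against 3209 and 3445 in the main comparison. With all arrays scaled to their medians TFAM probes a and b also lost their calls (limma adjusted p = 0.0591 and 0.121). The leukocyte mean also brought PPARGC1A probe a to 0.04 and PPARD probe a to -0.03, both of the opposite sign.

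Within single breeds few calls were made. In Creole pigs 1 of 13 member probes was called, against 1.91% of all probes called in Creole and 0.874% called lower. This was TFAM probe a, which averaged 11.30 ± 0.08 (SD, n = 6) without heat and 11.03 ± 0.14 (SD, n = 6) under HS, for a log2 difference of -0.26 (SE 0.07, limma adjusted p = 0.0460). In TN the Creole arrays ran from 11.224 to 11.436 and in HS from 10.894 to 11.215, so the groups did not overlap. The call stood close to the threshold and was lost when any of 20 single arrays was left out of the model (Creole TN replicates 1, 4, 5 and 6, Creole HS 1, 3, 5 and 6, F1 TN 3 and 6, F1 HS 1, 2 and 5, Large White TN 2, 4 and 5, Large White HS 1, 3, 4 and 6). In F1 and in Large White pigs 0 of 13 were called by limma, where 0.00482% of all probes were called in each. In Large White, ESRRG probe b and PPARD probe b were called once Large White TN replicate 6 was left out (limma adjusted p = 0.0406 and 0.0444). The share of all probes called within Large White without that array is not given here. In the fit over all breeds, leaving it out took the calls over all 41517 probes from 6654 to 8007. For the interaction 0 of 13 member probes and 0% of all probes were called by limma, although 1593 probes had an unadjusted p below 0.05.

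Breed was then compared at both temperatures together. For Creole minus Large White 1 of 13 member probes was called, higher in Creole, where 3.64% of all probes were called and 1.73% called higher. PPARD probe a ran from 9.09 to 9.90 with a median of 9.60 on the 12 Creole arrays and from 8.41 to 9.73 with a median of 8.98 on the 12 Large White arrays, with the F1 arrays between 8.94 and 9.55. The Creole mean was higher, although the ranges overlapped. The log2 difference was 0.48 (SE 0.12, 95% interval 0.24 to 0.72, limma adjusted p = 0.0150), a level 1.39 times that of Large White. On the TN arrays alone it was 0.38 and did not pass (limma adjusted p = 0.315), and it also missed the threshold when arrays were scaled to their medians or on spike-in controls. PPARD probes b and c differed between these breeds by 0.01 (SE 0.07) and -0.02 (SE 0.06), with limma adjusted p = 0.976 and 0.905.

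**Figure D3:**
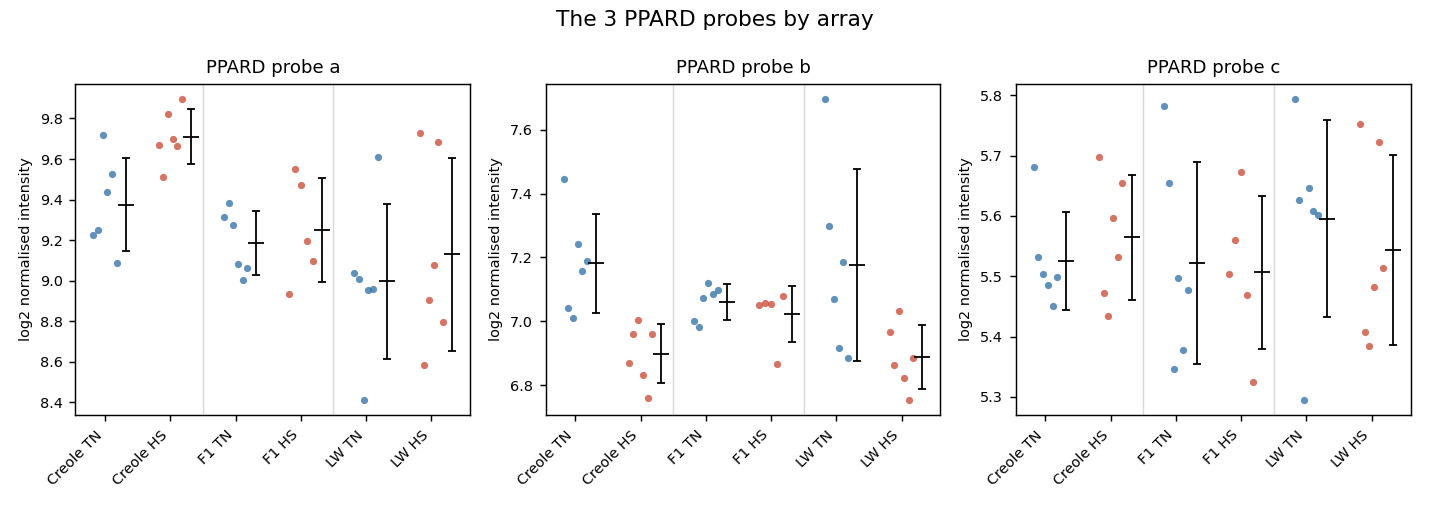
Log2 normalised intensity of PPARD probes a, b and c on all 35 arrays by group (LW, Large White), with TN in blue, HS in red, and the mean ± SD beside each group. Probe a is highest in Creole HS, at 9.71 ± 0.13, while probe b is lower in HS than in TN in Creole and Large White and probe c lies between 5.29 and 5.79 throughout.

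No other member probe passed a test between breeds. For F1 minus Large White, F1 minus Creole and F1 minus the midpoint of both parents, 0 of 13 member probes were called by limma, where 0.525%, 0.477% and 0.246% of all probes were called. At an unadjusted p below 0.05, PPARA probe a and PPARD probe a were lower in F1 than in Creole, and TFAM probe a was lower in F1 than the parental midpoint. Their limma adjusted p was 0.531, 0.333 and 0.653. The share of all probes below that unadjusted threshold is not given here, so these values are no evidence of a breed difference. PPARGC1A probe a was at 10.21 ± 0.54 (SD, n = 12) in Creole, 10.12 ± 0.26 (SD, n = 11) in F1, and ran from 9.12 to 10.75 over the 12 Large White arrays, with a log2 difference of 0.21 (95% interval -0.12 to 0.54) between Creole and Large White.

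The 6 groups were also put in order of their mean on each probe. ESRRA, both ESRRG probes, PPARA probe b, PPARD probe b and the overlapping TFAM probes a and b each had all 3 TN groups above all 3 HS groups. PPARA probe b passed the filter on dim probes only through Large White TN, so the filter favoured a high place for that group. PPARGC1A probe a ran from Creole TN at the top to Large White HS at the bottom over 0.67 log2, with F1 HS above F1 TN. On PPARD probe a both Creole groups were at the top and both Large White groups at the bottom. Neighbours in these orders lay closer than 1 SD of the wider group on all probes except PPARD probes a and b, where 1 of 5 neighbouring pairs was farther apart.

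To see whether the members varied together beyond breed and temperature, each array was expressed as its deviation from the mean of its group. Between probes of 1 gene, PPARGC1A probes a and b had r = 0.92 (rho = 0.91), PPARGC1A probes a and c r = 0.86 (rho = 0.84), ESRRG probes a and b r = 0.98 (rho = 0.98), and the overlapping TFAM probes a and b r = 0.86 (rho = 0.85), each with a permutation p = 1e-05 for r and for rho, the smallest the permutations can give (adjusted over 14 pairs 2.8e-05). TFAM probe a had r = -0.08 with probe d (rho = -0.11, adjusted permutation p = 0.75 for r and 0.801 for rho). PPARD probe a had r = 0.57 with probe c (rho = 0.56, adjusted permutation p = 0.00698 and 0.00516) and r = -0.16 with probe b (rho = -0.11, adjusted permutation p = 0.612 and 0.801). Without the 2 arrays farthest from the median of the first probe named, r was 0.91, 0.84, 0.98 and 0.86 for these 4 close pairs in turn and 0.45 for PPARD probes a and c. The less close pairs depended on the scaling. With 75th percentile scaling PPARD probes a and c came to r = 0.13 (adjusted permutation p = 0.55) and no longer passed, whereas PPARD probes b and c went from 0.15 to 0.63 (adjusted permutation p = 0.000327) and PPARA probes a and b from 0.16 to 0.62 (adjusted permutation p = 0.00064).

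Between genes, 15 pairs of leading probes (the brightest member probe of each gene) were compared. PPARGC1A and ESRRA, the coactivator and its receptor partner, had r = 0.72 (permutation p = 3e-05, adjusted over 15 pairs 0.00045) and rho = 0.65 (adjusted permutation p = 0.00825) over 35 arrays, with r = 0.71 without the 2 extreme arrays. The value was 0.80 on the 18 TN arrays and 0.62 on the 17 HS arrays. PPARGC1A and ESRRG had r = 0.45 (adjusted permutation p = 0.0435) but rho = 0.40 (adjusted permutation p = 0.147), and with array brightness regressed out r was 0.36 and did not pass (adjusted permutation p = 0.22). The other 13 pairs did not pass for r with quantile normalisation. With 75th percentile scaling 3 of them passed, PPARGC1A and PPARA at r = 0.53 (adjusted permutation p = 0.0148), PPARD and ESRRG at r = -0.44 (adjusted permutation p = 0.049) and ESRRA and ESRRG at r = 0.42 (adjusted permutation p = 0.049). TFAM probe a had r between -0.38 and -0.003 with the other 5 genes. All values on an array share its RNA, hybridisation and scan, which can move probes together.

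**Figure D4:**
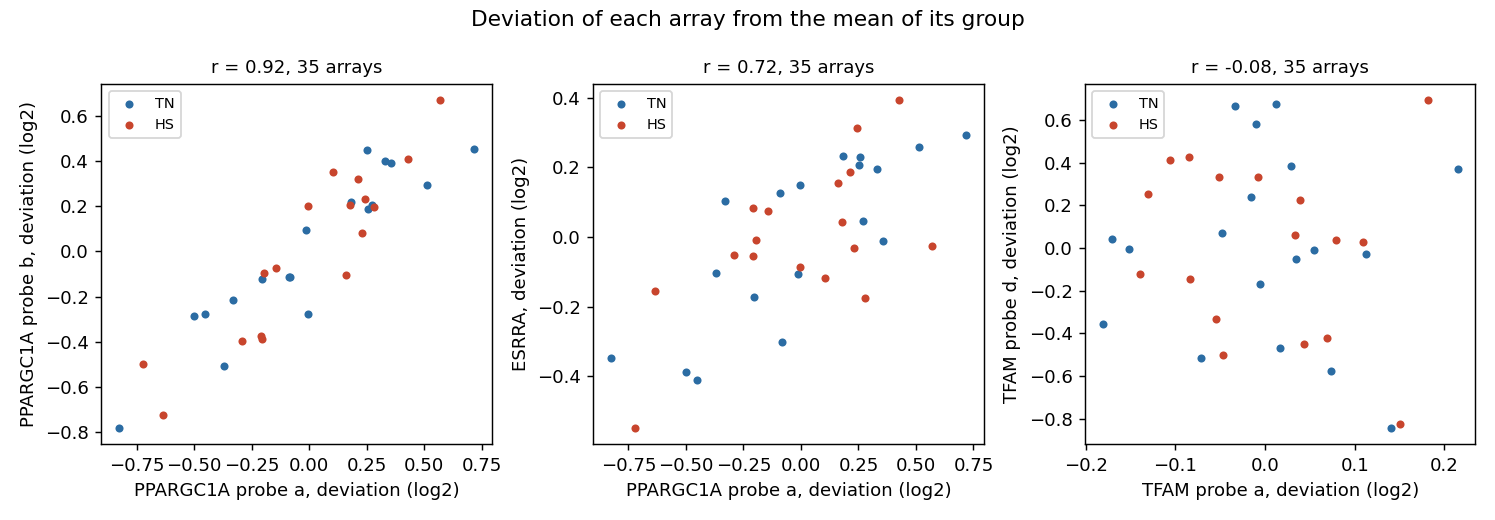
Deviation of each of 35 arrays from its group mean (log2) for 3 pairs of probes, with TN in blue and HS in red. PPARGC1A probes a and b (r = 0.92) and PPARGC1A with ESRRA (r = 0.72) line up, whereas TFAM probes a and d (r = -0.08) do not.

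For each leading probe, the genes whose deviations were most like it were sought among 9692 genes by Pearson r, as a description. For PPARGC1A these were SIRT5 (r = 0.84), STRN4 (r = 0.83) and DHX32 (r = 0.80), and for ESRRA they were GOT1 (r = 0.88), CMIP (r = 0.87) and NIPSNAP3A (r = 0.84). PTGS1 (r = 0.80), DES (r = 0.79) and SERPINE2 (r = 0.78) were most like PPARD probe a. C11ORF58 (r = 0.78), KATNA1 (r = 0.69) and LEO1 (r = 0.69) were most like TFAM probe a. For ESRRG probe a they were LOC396566 (r = 0.74), PLPPR5 (r = 0.69) and C4H8ORF37 (r = 0.67), and for PPARA probe a LOC396781 (r = 0.64), SOX13 (r = 0.64) and SLC35G6 (r = 0.61). Under HS, DES and SERPINE2 rose (0.24, SE 0.05, and 0.68, SE 0.24) and GOT1 and SLC35G6 fell (-0.55, SE 0.13, and -0.17, SE 0.05), while the others of these 18 genes did not pass.

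The pathway around the members was read from lists of its other genes, each gene by its brightest kept probe, for which 18.3% of 9704 genes were called under HS, 8.44% higher and 9.83% lower. Nuclear target genes of these factors come first. Of 19 genes of the respiratory chain and the TCA cycle, 16 fell and 0 rose, with a median log2 difference of -0.29 against -0.02 over all genes. The smallest p-values belonged to ATP5A1, a subunit of ATP synthase (-0.33, SE 0.06), COX5B of cytochrome c oxidase (-0.23, SE 0.04), IDH3A of the TCA cycle (-0.45, SE 0.08) and CYC1 of complex III (-0.36, SE 0.07). CYC1 and COX5B were below the TN mean of the breed in 17 of 17 HS pigs.

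Of 21 target genes of fatty acid use, 12 fell and 0 rose, with a median of -0.24. They included HADHB of mitochondrial beta-oxidation (-0.25, SE 0.05), the fatty acid activating enzyme ACSL1 (-0.46, SE 0.11), the acyl-CoA dehydrogenase ACADVL (-0.36, SE 0.10), and PDK4, a kinase that shuts pyruvate dehydrogenase when fat is burned, at -1.92 (SE 0.52, limma adjusted p = 0.0115). PDK4 fell from 14.11 ± 1.69 (SD, n = 18) to 12.20 ± 1.53 (SD, n = 17), and its 10 other kept probes were also called lower.

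The mitochondrial genome encodes core subunits of the respiratory chain. Of its 13 mRNAs 3 fell and 0 rose, with a median of -0.10: ND4L (-0.31, SE 0.06), ATP8 (-0.30, SE 0.09) and ND4 (-0.15, SE 0.05). ND4L and ATP8 had no other kept probe, and 8 of 10 others of ND4 were called lower. Among uncalled genes, other kept probes were called lower for CYTB (4 of 20), ND1 (2 of 19), ND2 (1 of 11), ND3 (1 of 2) and ND5 (1 of 2). For COX1 (24 others), ATP6 (8) and ND6 (1) 0 were. For COX3 11 of 13 others, and for COX2 4 of 4, had the opposite sign to the brightest probe. Of 6 measured genes that copy or transcribe mitochondrial DNA, 1 fell, POLG, the catalytic subunit of the mitochondrial DNA polymerase (-0.16, SE 0.05), and none of its 4 other probes was called lower. Of 4 genes of mitochondrial fusion and fission 0 were called by limma, with 0 at an unadjusted p below 0.05.

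Of 24 other coregulators and partner factors, 2 fell and 1 rose, with a median of -0.09. The thyroid hormone receptor THRB (-0.36, SE 0.10) and the PPARGC1A partner YY1 (-0.19, SE 0.06) were lower and the coactivator NCOA2 (0.19, SE 0.06) was higher. Each of these calls rests on 1 probe. Of the other kept probes, 2 for THRB, 1 for YY1 and 3 for NCOA2, none was called in the same direction. Of 18 genes listed as upstream enzymes, mainly kinases, phosphatases and acetylation enzymes that act on PPARGC1A or its promoter, 5 fell and 0 rose, with a median of -0.13. They were the calcineurin subunits PPP3R1 (-0.34, SE 0.09) and PPP3CB (-0.29, SE 0.08), the calcium-dependent kinase CAMK2G (-0.37, SE 0.10), the nitric oxide synthase NOS3 (-0.24, SE 0.07) and a subunit of the energy sensor AMPK, PRKAG1 (-0.12, SE 0.04). All other kept probes of PPP3CB, CAMK2G and PRKAG1 were also called lower. The other kept probe of NOS3 was not, and PPP3R1 had no other kept probe.

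**Figure D5:**
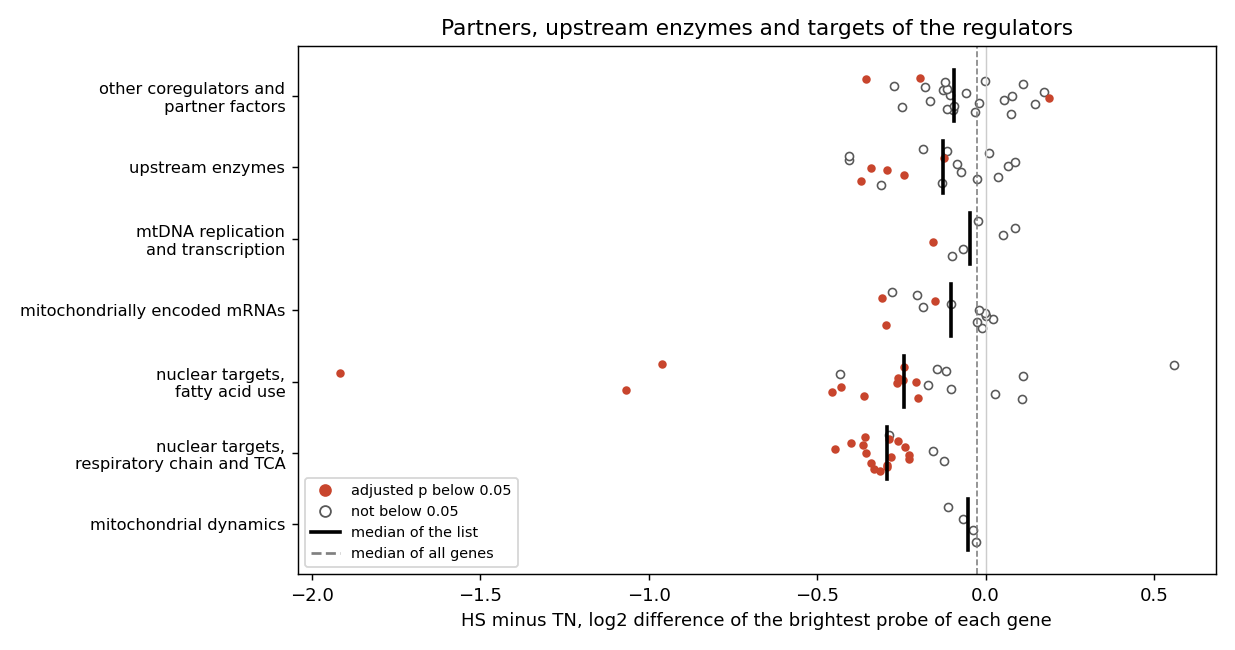
HS minus TN log2 difference of the brightest probe of each gene, 1 point per gene, in 7 lists around the regulators, with red for an adjusted p below 0.05, a black bar for the median of the list and a dashed line for the median of all 9704 genes (-0.02). The nuclear target lists lie lowest, with medians of -0.29 and -0.24.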

How the data were processed

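Muscle RNA of 35 pigs was measured on 1-colour Agilent arrays, and the authors quantified spots with Feature Extraction 10.10.1.1. The deposited scanner files hold the intensity of each spot on a linear scale with quality flags. The deposited value table holds log2 values of 40649 probes, which the authors quantile-normalised and filtered, and was used as an alternative. Here the median intensity of non-control spots was quantile-normalised without background subtraction, log2 was taken, 105 outlier spots were set to missing, and no spot was saturated. Probes were kept, 41517 in all, if at least 1 group had 75% of its arrays well above background, including 13 of 14 member probes. The number of arrays, not counting error, limits the precision.

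Tests used limma 3.58.1 (R 4.3.3), its empirical Bayes moderation, Benjamini-Hochberg adjustment over all kept probes and a threshold of 0.05. Temperature and breed were fitted together, and a model with 1 mean per group gave the differences within breeds and the interaction. Pen, slaughter and parents, random terms in the study methods, were not used here. Correlations and array measures were tested with 100000 two-sided permutations, within groups and within breeds respectively. Gene names came from the accession in the reference gene tables of Sscrofa11.1, then from the files. Tested on simulated data with 41517 probes, 200 of them changed by 1 log2, the temperature fit recovered 97.5% with 6 false calls. That change is larger than any member difference in the temperature fit, of which the largest was -0.55. The simulated noise was independent between arrays and probes. Recovery at the size of the member differences was therefore not tested. The members and all gene lists were chosen with earlier results of these data known, so their counts are descriptions. All member probes were named, pathway genes by the smallest p for temperature (at most 4 a list, with the fifth called upstream enzyme added after its value was seen), and like genes by the 3 highest r. Probe positions in the genome were not analysed here.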

Additional observations from a re-analysis of the deposited data

Results flagged for a closer look

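Within the 6 groups, an array was looked at again where its gap to the nearest other array was unusually wide for the range of the group. This held for 5 of 96 combinations of probe and group, where chance flags about 1 in 20. TFAM probe c read 7.92 on F1 TN replicate 1, with the next array at 9.32 (gap 0.72 of the range), and 8.0 on F1 HS replicate 3, with the next at 8.97 (gap 0.712). PPARD probe b read 6.87 on F1 HS replicate 4, with the next at 7.05 (gap 0.872). PPARA probe a read 5.67 on F1 TN replicate 2, with the next at 5.89 (gap 0.644). PPARD probe c read 5.68 on Creole TN replicate 1, with the next at 5.53 (gap 0.65). No probe had all HS arrays of 1 breed above and all HS arrays of another below the TN mean of their breed.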

How the results depend on the processing

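The HS minus TN count of 5 called member probes became 8 with 75th percentile scaling, 1 with spike-in scaling, 2 with array brightness, 2 with the leukocyte mean as covariates and 2 with 1 probe per symbol (where only 5 member probes were tested), and stayed within 1.5 times in 10 other settings, all called member probes being lower throughout. Calls over all 41517 probes changed as well. They went from 6654 (3445 lower) to 9320 (6781 lower) with 75th percentile scaling and to 4671 (627 lower) with spike-in scaling. With brightness they were 2092 (761 lower) and with the leukocyte mean 2009 (863 lower). With 1 probe per symbol 1931 of 9704 probes were called. Leaving out 1 array gave 5 to 7. Within Creole the count of 1 became 0 with 75th percentile, median or spike-in scaling, the processed signal, no filter, slide as a fixed block and both covariates, and 2 with array weights, and ran from 0 to 2 with 1 array left out. Array weights gave 2 calls in F1 and 1 in Large White, where leaving out 1 array gave 0 to 2. Creole minus Large White gave 0 with median scaling, spike-in scaling and TN arrays alone. F1 minus Creole gave 1 with the leukocyte mean. The interaction and the other F1 contrasts kept 0 throughout. For the comparisons within and between breeds, the share of all probes called in each of these settings is not given here. ESRRG probe a passed without any of 5 TN arrays (Creole 2, F1 1, 2 and 4, Large White 6) and PPARA probe b without Large White TN 2 or 6.

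Sign changes were confined to uncalled values. PPARGC1A probe a became 0.041 and PPARD probe a -0.028 with the leukocyte mean. PPARGC1A probe c became 0.0098 with brightness and 0.017 with the leukocyte mean. TFAM probe c became 0.052 with spike-in scaling. PPARD probe c became 0.0091 with spike-in scaling, 0.022 with normexp, 0.0023 with array weights and ran from -0.027 to 0.0063 with 1 array left out. Among correlations between genes, TFAM probe a came to r = 0.035 with PPARGC1A, 0.016 with PPARA, 0.126 with ESRRA and 0.029 with ESRRG without the 2 extreme arrays, to 0.015 with ESRRA by 75th percentile scaling, and to 0.017 with ESRRG with brightness regressed out. Between probes of 1 gene, PPARD probes a and b came to 0.036 with brightness regressed out, and PPARD b and c to -0.138, TFAM b and d to 0.011 and TFAM c and d to 0.0072 without the 2 arrays. The cause was not tested. No paired analysis was possible because replicate numbers follow the order of deposition.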
